A study of Homo sapiens with 2 samples.

Results

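The mRNAs of 10 TGF-beta and BMP signalling genes were followed in a map of RNA bound by Flag-RBM47. The members were the ligand genes TGFB1, TGFB2 and INHBA, the receptor genes TGFBR1, TGFBR2 and BMPR2, and the SMAD genes SMAD2, SMAD3, SMAD4 and SMAD7. They were found by gene symbol in the deposited table of clusters, and 9 of the 10 had rows, among 7712 genes in all. SMAD7, which encodes an inhibitory SMAD, matched no row and was not analysed here. The members held 298 of 233546 clusters, of which 163 had at least 10 tags.

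TGF-beta and BMP ligands are secreted proteins that bring together type I and type II receptor kinases at the cell surface. The type II receptor activates the type I receptor, which phosphorylates receptor SMADs. These join SMAD4 and enter the nucleus to control transcription. The pathway can restrain the growth of epithelial cells, and in breast cancer it has also been tied to invasion and metastasis.

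The cells were MDA231-BrM2a, a mixed population, not a single clone, derived from the breast cancer line MDA-MB-231 and able to form brain metastases. All cells carried wild-type RBM47, an RNA-binding protein, with a Flag tag under a doxycycline-inducible promoter, and doxycycline was given at 1 ng/ml for 3 days in all of them. HITS-CLIP uses ultraviolet light to crosslink protein to RNA, the tagged protein is pulled down, and unique reads of the attached fragments, called tags, are grouped into clusters. There was 1 group with 2 replicates and no sequenced control library, so the counts gave no measure of pull-down background and no comparison of conditions. On a gel of radiolabelled RNA, the paper saw none from cells without crosslinking or with an empty vector. The protein was an introduced one, and whether endogenous RBM47 binds at these places was not tested. RNA abundance was not measured in this assay, so tag number and transcript abundance cannot be told apart, and the identity of the cells was not checked from marker genes. The clusters held 999047 tags in replicate 1 and 3489697 in replicate 2, and each listed cluster had at least 1 tag in each and at least 5 in total. These sums are not library depths, since a cluster without a tag in either replicate was not listed.

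The 3 receptor mRNAs carried most of the tags. A gene's tags were here the sum of the authors' total over its clusters of at least 10 tags. The members had 10781 tags on this measure, of which BMPR2 held 45.0% and the receptors together 74.6%. More than 100 tags were found in 7 of the 9 members with rows, namely all 3 receptors, TGFB2, SMAD2, SMAD3 and SMAD4, while 39.9% of all genes in the table passed the same rule. The median member had 594 tags, against a median of 49 tags over all genes in the table. INHBA with 42 tags and TGFB1 with 11 tags stayed below. With a minimum of 10 tags per cluster in replicate 1 alone, 4 members passed, and SMAD2, SMAD3 and SMAD4 fell to 24, 10 and 24 tags. In that library 10.3% of all genes passed.

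**Figure D1:**
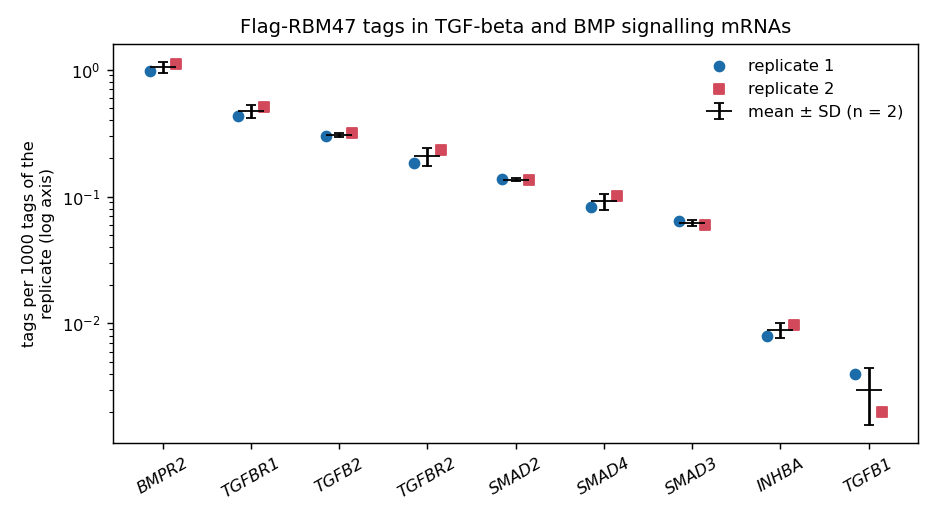
Tags per 1000 tags of the replicate (log axis) in clusters of at least 10 tags, for the 9 members with rows. Points are the replicates and bars the mean ± SD (n = 2), from BMPR2 at 1.04 down to TGFB1 at 0.00300.

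Among the ligand mRNAs, TGFB2, which encodes a TGF-beta isoform, stood well above the other two. TGFB2 (Entrez gene 7042, chromosome 1, plus strand) had 299 tags in replicate 1 and 1103 in replicate 2. Scaled to 1000 tags of each replicate, these were 0.299 and 0.316, a mean of 0.308 ± 0.0119 (SD, n = 2), and TGFB2 ranked 440 among the 5600 genes with a cluster of at least 10 tags. INHBA (Entrez gene 3624, chromosome 7, minus strand) encodes the beta A subunit of activins and inhibin A. It had 8 and 34 tags, or 0.00888 ± 0.00123 (SD, n = 2) per 1000 tags. TGFB1 (Entrez gene 7040, chromosome 19, minus strand), the gene of the founding TGF-beta ligand, had 4 and 7 tags in its only cluster of at least 10 tags, or 0.00300 ± 0.00141 (SD, n = 2) per 1000 tags. Both replicates of TGFB2 were above both replicates of INHBA, and both of INHBA above both of TGFB1.

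Among the receptors, the type II BMP receptor mRNA had more tags than either TGF-beta receptor mRNA. BMPR2 (Entrez gene 659, chromosome 2, plus strand) had 971 and 3897 tags, or 0.972 and 1.12 per 1000 tags. Its mean was 1.04 ± 0.102 (SD, n = 2) per 1000 tags, and it ranked 66 of 5600 genes, with ranks of 69 and 63 in the single replicates. TGFBR1 (Entrez gene 7046, chromosome 9, plus strand), the type I TGF-beta receptor, had 433 and 1772 tags, a mean of 0.471 ± 0.0526 (SD, n = 2) per 1000 tags, and ranked 251. TGFBR2 (Entrez gene 7048, chromosome 3, plus strand), the type II TGF-beta receptor, had 184 and 814 tags, a mean of 0.209 ± 0.0347 (SD, n = 2) per 1000 tags, and ranked 653. The replicates of the 3 receptors did not overlap.

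The SMAD mRNAs followed below the receptors. SMAD2 (Entrez gene 4087, chromosome 18, minus strand), a receptor SMAD of the TGF-beta branch, had 138 and 467 tags, or 0.136 ± 0.00305 (SD, n = 2) per 1000 tags. SMAD4 (Entrez gene 4089, chromosome 18, plus strand), the SMAD shared by both branches, had 82 and 354 tags, or 0.0918 ± 0.0137 (SD, n = 2) per 1000 tags. SMAD3 (Entrez gene 4088, chromosome 15, plus strand), the other receptor SMAD of the TGF-beta branch, had 64 and 207 tags, or 0.0617 ± 0.00335 (SD, n = 2) per 1000 tags. In the order BMPR2, TGFBR1, TGFB2, TGFBR2, SMAD2, SMAD4, SMAD3, INHBA and TGFB1, no neighbours overlapped between replicates.

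Long mRNAs can collect more tags, so exonic tags, which leave out clusters labelled only as intron, were also divided by transcript length. The lengths came from the GENCODE canonical transcript. BMPR2 had 397 exonic tags per kb, TGFBR1 338, TGFB2 238 and TGFBR2 220, against a median of 28.0 over 5308 genes with a length. On this scale the replicates of TGFB2 and TGFBR2 overlapped. SMAD4 had 48.9 exonic tags per kb, SMAD2 16.9, INHBA 6.95, SMAD3 6.65 and TGFB1 3.96. SMAD3 and INHBA overlapped between replicates, as did INHBA and TGFB1. The INHBA value left out 584 tags in clusters without a gene ID just beyond it on the same strand, described below. The annotated 3'UTR of SMAD2 measured 32873 nt while its clusters labelled 3'UTR spanned 8810 nt. Per kb of the stretch between the first and last such cluster, SMAD2 had 83.4 tags and SMAD4 121 in clusters of at least 10 tags, and the replicates did not overlap. With all deposited clusters, the values were 78.2 in SMAD2 and 82.5 in SMAD4. Scaled to each replicate, the density over all deposited clusters was 0.0183 ± 0.000974 (SD, n = 2) tags per 1000 tags and kb in SMAD2 and 0.0182 ± 0.00116 (SD, n = 2) in SMAD4, a difference smaller than the spread between replicates.

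The distribution of tags over transcript regions was then examined. Each cluster carried the authors' location label, and some carried 2 labels. Clusters with a label that included 3'UTR held 89.9% of the members' tags, or 89.7% ± 0.562 (SD, n = 2) per replicate, while the value over all genes was 63.1%. BMPR2 made up much of that sum, so the members were also read one by one. In 6 of the 7 members with more than 100 tags, more than 50% of the tags had a 3'UTR label, as in 76.1% of the 3074 genes with more than 100 tags. The median share over those 7 members was 92.0%, and over those 3074 genes 83.9%.

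**Figure D2:**
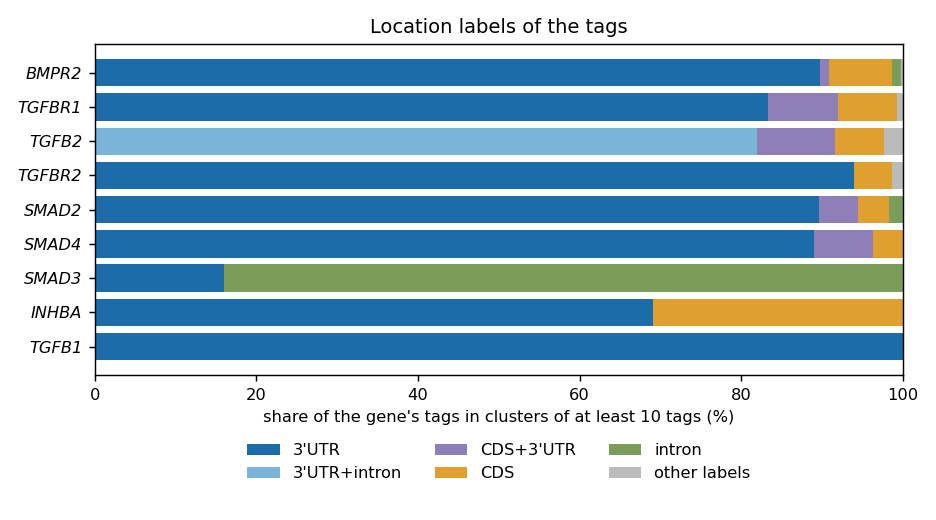
Share of each gene's tags in clusters of at least 10 tags (%) by location label, both replicates pooled, with genes ordered by tags. Labels joined by + were given to the same cluster, and SMAD3 is the member with most of its tags in clusters labelled only as intron.

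In the 3 receptor mRNAs, clusters labelled only as 3'UTR held the bulk of the tags. Their share was 89.9% ± 0.212 (SD, n = 2) in BMPR2, 84.0% ± 1.40 (SD, n = 2) in TGFBR1 and 94.0% ± 0.0293 (SD, n = 2) in TGFBR2. Coding sequence (CDS) alone held 7.88% ± 0.364 (SD, n = 2) in BMPR2, 6.84% ± 0.858 (SD, n = 2) in TGFBR1 and 4.78% ± 0.158 (SD, n = 2) in TGFBR2. In SMAD2 and SMAD4, clusters labelled only as 3'UTR held 89.2% ± 1.08 (SD, n = 2) and 89.6% ± 0.892 (SD, n = 2) of the tags. In TGFB2, 80.9% ± 2.72 (SD, n = 2) of the tags lay in 12 clusters labelled as both 3'UTR and intron, and 10.02% ± 0.965 (SD, n = 2) in a cluster labelled as CDS and 3'UTR. The table does not say which of the labels applies to a given tag, so intron and 3'UTR cannot be told apart for TGFB2. Divided by annotated length, the density in clusters labelled only as 3'UTR was 10.7 times that in CDS-only clusters in TGFBR2, where all deposited clusters were counted, with 10.6 in replicate 1 and 10.7 in replicate 2. The ratio was 4.48 in BMPR2, with 4.12 and 4.60 in the replicates, and 3.31 in TGFBR1, with 3.59 and 3.27. It was 7.13 in SMAD4, with 8.14 and 7.05, and 3.80 in TGFB2, with 3.10 and 3.91, where the 3'UTR clusters were those labelled as both 3'UTR and intron. Per annotated length the density was lower in the 3'UTR than in the CDS in SMAD2, with a ratio of 0.485 and values of 0.484 and 0.472 in the replicates. That ratio used the annotated 3'UTR of 32873 nt. Over the 8810 nt stretch of its clusters, SMAD2 had 78.2 tags per kb under any 3'UTR label. Its CDS-only clusters had 41.4 tags per kb of CDS, so the direction in SMAD2 depended on the 3'UTR length used. The stretch was bounded by its own clusters, while the CDS length was the full annotated one, so these densities are not like for like. INHBA had a ratio of 0.637, with 0.563 and 0.664 in the replicates, on 43 tags in the 3'UTR and 19 in the CDS. That ratio used an annotated 3'UTR of 4539 nt, while the INHBA clusters labelled 3'UTR spanned 725 nt. It left out 584 tags in clusters without a gene ID that began 16 nt beyond INHBA on the same strand, described below. Per kb of this stretch INHBA had 59.3 tags, against 14.9 per kb of CDS, so its direction also depended on the length used. The same unlike lengths were compared here as in SMAD2. In TGFB1 the ratio of 3.52 rested on 11 and 5 tags.

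The tags under a label that included 3'UTR lay in long, nearly unbroken runs of clusters in the receptors and TGFB2. In BMPR2, 27 clusters covered 94.4% of a stretch of 8056 nt. In TGFBR1, 17 clusters covered 95.5% of 4473 nt, and in TGFBR2, 6 clusters covered 93.3% of 2545 nt. In TGFB2, 13 clusters covered 84.1% of 3381 nt. Coverage was lower in the SMAD mRNAs, at 58.4% of 8810 nt in SMAD2, 46.2% of 5870 nt in SMAD4 and 23.4% of 4178 nt in SMAD3. These mRNAs also had fewer tags, and a cluster had to reach 5 tags to be listed, so sparser binding and shallower sampling cannot be told apart in these mRNAs.

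**Figure D3:**
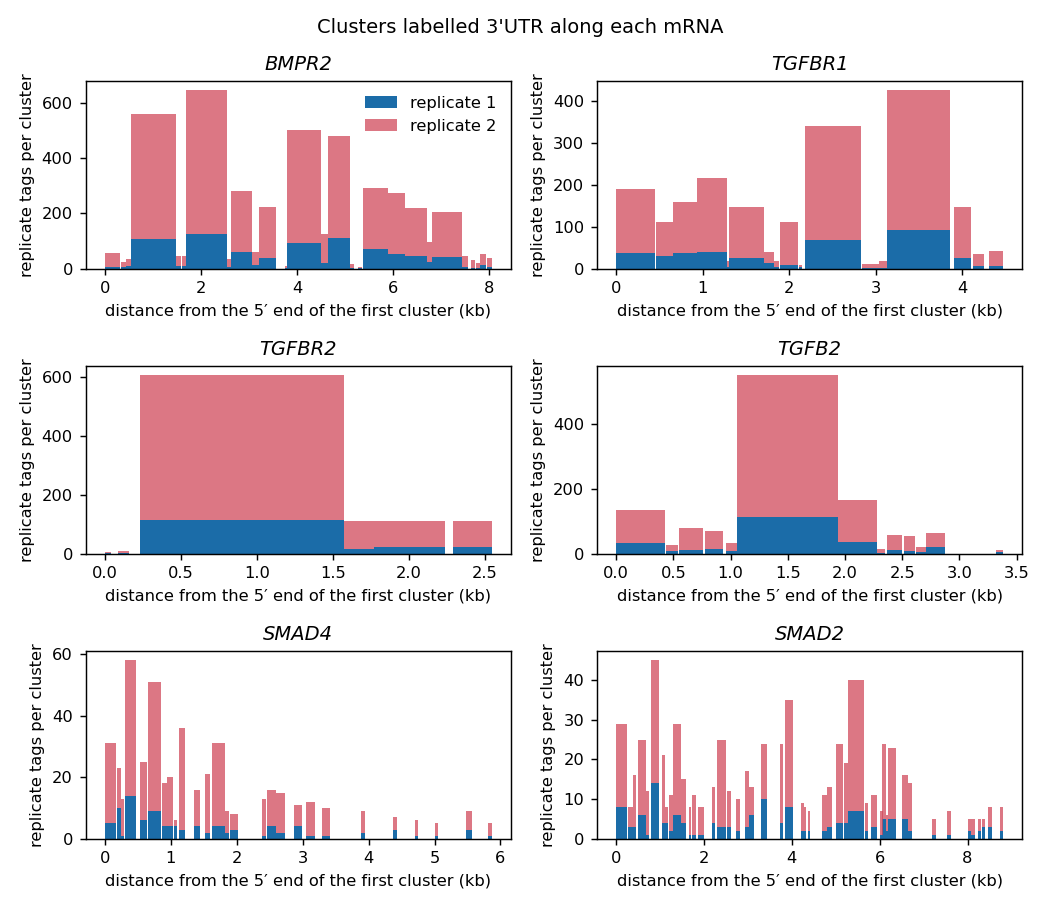
Tags per cluster in each replicate (stacked) for clusters whose label includes 3'UTR, against the distance from the 5′ end of the first such cluster (kb), drawn 5′ to 3′ with bar width equal to cluster length. The BMPR2 clusters are spread over the stretch, while those of SMAD4 with the most tags are near its 5′ end.

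Within the stretch, the tags were spread evenly in some mRNAs and unevenly in others. Each stretch was divided into 3 equal parts. In BMPR2 these held 33.6%, 37.6% and 28.8% of the tags from 5′ to 3′. In SMAD4 the part nearest the CDS held 73.9%, with 73.5% in replicate 1 and 74.6% in replicate 2. In TGFB2 the middle part held 51.3%, with 51.1% and 51.2% in the replicates.

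The largest clusters of the members all carried a 3'UTR label except that of SMAD3. Positions are those of the deposited table, for which the submitters' processing notes name hg18. By the clusters as deposited, TGFBR2 had the highest share of tags in a single cluster among the members with more than 100 tags. When clusters closer than 50 nt were merged this order turned, and the share was 89.9% in TGFBR1, 88.9% in TGFB2 and 81.3% in TGFBR2. The deposited TGFBR2 3'UTR cluster at chr3:30708311-30709648, plus strand, had 113 and 493 tags, or 60.9% of the gene's tags over 1337 nt, and the next 2 clusters, at chr3:30709847-30710316 and chr3:30710367-30710623, had 110 tags each by the authors' total. The median largest cluster in genes with more than 100 tags held 21.4% of the tags. In TGFB2 the largest cluster, at chr1:216682221-216683100, plus strand, had 112 and 438 tags, or 39.3%. It was followed by clusters of 165 tags at chr1:216683106-216683448 and of 135 tags at chr1:216681165-216681589, the latter labelled as CDS and 3'UTR.

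BMPR2 had the lowest such share of the receptors, also after merging, at 40.8%. Its largest deposited cluster, at chr2:203134354-203135209, plus strand, had 126 and 523 tags, which was 13.3% of the gene's tags. The clusters at chr2:203133213-203134136 and chr2:203136454-203137155 had 561 and 503 tags, and 11 BMPR2 clusters in all reached 100 tags. In TGFBR1 the largest cluster, at chr9:100954457-100955177, plus strand, had 91 and 335 tags, or 19.4% of the gene's tags. It was followed by 341 tags at chr9:100953502-100954151 and 215 tags at chr9:100952261-100952600. Of the 298 member clusters, 27 reached 100 tags, or 9.06%, while 2.2% of all clusters with a gene ID did. All 27 were in BMPR2, TGFBR1, TGFBR2 or TGFB2.

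The SMAD clusters were smaller. The largest in SMAD2, at chr18:43621325-43621500, minus strand, had 14 and 31 tags, and the next had 40 tags at chr18:43616654-43617006 and 35 tags at chr18:43618257-43618443. The largest in SMAD4, at chr18:46859123-46859303, plus strand, had 14 and 44 tags, and the next had 51 tags at chr18:46859473-46859682 and 34 tags at chr18:46859950-46860037. The only TGFB1 cluster of at least 10 tags was in the 3'UTR at chr19:46528652-46528720, minus strand.

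SMAD3 was the member with most of its tags in clusters labelled only as intron. TGFB2 cannot be compared with it in this respect, since most TGFB2 tags were in clusters labelled as both 3'UTR and intron. Clusters labelled only as intron held 84.2% ± 0.224 (SD, n = 2) of the SMAD3 tags and 3'UTR clusters 15.8% ± 0.224 (SD, n = 2). No CDS cluster was listed for SMAD3. More tags in introns than under a 3'UTR label were found in 15.4% of the 3074 genes with more than 100 tags, and SMAD3 was 1 of the 7 members. Over all deposited clusters, SMAD3 had 32 intron clusters with 357 tags, and most of them were close together. The densest window of 10 kb held a stretch of 6182 nt at chr15:65149525-65155707, plus strand, with 22 of them and 291 tags, which was 81.2% of the intron tags in replicate 1 and 81.9% in replicate 2. The 3 largest SMAD3 clusters were in this stretch. The first of these, at chr15:65151737-65151920, had 9 and 35 tags, and the others had 37 tags at chr15:65151568-65151709 and 31 tags at chr15:65152422-65152680. The first SMAD3 3'UTR cluster began 114528 nt farther on. In full, the 32 SMAD3 intron clusters spanned 91289 nt. The 26 intron clusters of BMPR2 had 191 tags and a largest cluster of 14 tags over 115741 nt. The 20 of SMAD2 had 121 tags over 69453 nt. The densest window was read for SMAD3 only, so whether such crowding is particular to SMAD3 was not tested.

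**Figure D4:**
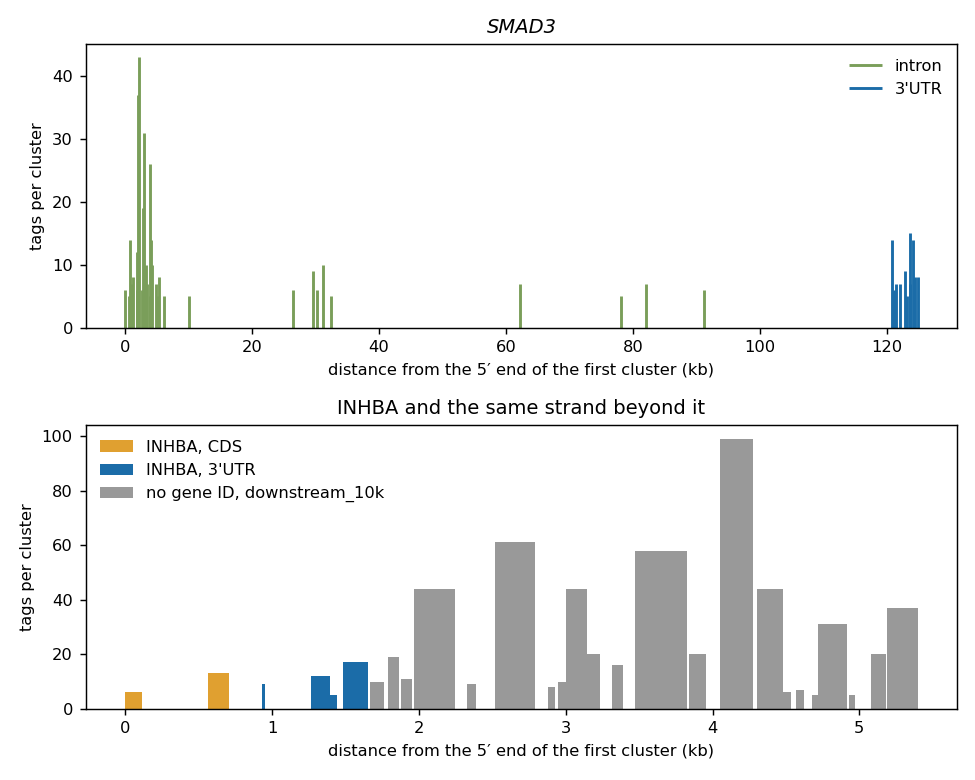
Tags per cluster by the authors' total against distance from the 5′ end of the first cluster of the gene (kb). In SMAD3 (top) the tallest lines are intron clusters in the first kilobases. For INHBA (bottom) the 22 grey clusters on the same strand have no gene ID and hold 584 tags.

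INHBA had few tags under its own gene ID, but clusters on the same strand began just beyond it. Its 6 listed clusters included a largest 3'UTR cluster at chr7:41694981-41695151 with 2 and 15 tags. The next cluster on the minus strand began 16 nt farther on. It was the first of 22 clusters with no gene ID, labelled by the authors as within 10 kb downstream of a gene, at chr7:41691237-41694965. They held 584 tags, with 138 in replicate 1 and 458 in replicate 2, and the largest held 99 tags. The 16 of them with at least 10 tags had 0.125 ± 0.00519 (SD, n = 2) tags per 1000 tags, and both replicates were above both replicates of INHBA itself. If they were added to INHBA, it would have 586 tags and rank 1122. From the first INHBA 3'UTR cluster to the last of these clusters the distance was 4469 nt, and the 3'UTR of the GENCODE canonical INHBA transcript is 4539 nt long. Whether these clusters lie in the INHBA transcript was not tested, since the genome of this build was not used here. Over the whole table, 156 of 7712 genes, or 2.02%, had more than 100 tags in such clusters without a gene ID within 10 kb and more there than under their own ID. INHBA was the member among them.

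No clusters were listed on the other strand within the span of any of the 9 members. The same count was not made for all genes, so whether this is particular to the members was not tested.

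The split of tags between the libraries was tested next, as a measure of whether the replicates differed on a member. Each gene's replicate 1 share was compared with the share of 22.3% over the table in a two-sided exact binomial test with Benjamini-Hochberg adjustment over all genes, where 1.7% of the genes had an adjusted p below 0.05. This test compares the libraries, and not conditions. The reference share came from listed clusters only, each with at least 1 tag in each replicate. It was therefore not a ratio of library depths, and in clusters of at least 100 tags the share was lower, at 20.8%. For genes with many tags the test cannot separate a split of their own from this dependence on cluster size. How far the listing rule shifts the share was not tested. BMPR2 passed, with 20.1% of its tags in replicate 1 (Wilson 95% interval 19.1 to 21.3) and an adjusted p of 0.0252 in the exact binomial test. Against the share of 20.8% in clusters of at least 100 tags, its adjusted p in the same exact binomial test was 0.704. Against 23.0%, from the median ratio over genes, the adjusted p of BMPR2 in that test was 0.000279. With only clusters of at least 10 tags, and the share of 22.3%, it was 0.00885 in that test. The call for BMPR2 thus depended on the reference share. Against the share of 22.3% over the table, the other 8 members did not pass. TGFBR1 had a share of 19.9% (Wilson 95% interval 18.3 to 21.7), TGFBR2 18.9% (16.7 to 21.4) and TGFB2 21.3% (19.3 to 23.5). The 3 SMAD members had shares of 20.8% to 24.3%. The shares of INHBA, at 24.2% (15.2 to 36.2), and TGFB1, at 31.2% (14.2 to 55.6), rested on few tags. By single clusters, 0 of the 298 member clusters had an adjusted p below 0.05 in the same exact test with Benjamini-Hochberg adjustment over all 233546 clusters, where 0.0111% passed. At an unadjusted p below 0.05 there were 16, or 5.37% of the member clusters, against 3.04% of all clusters. These shares were not matched for cluster size. Of the member clusters 9.06% reached 100 tags, against 2.2% of all clusters with a gene ID.

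The other genes of the pathway were read from a list of 71 genes in 6 roles, of which 40 had rows in the table and 22 had more than 100 tags, while 39.9% of all genes with rows did. Among 11 further receptor genes, 7 had rows and 5 passed 100 tags. TGFBR3, a co-receptor, had 613 tags, and the activin type II receptors ACVR2B and ACVR2A had 304 and 296. All were below the 3 receptor members. Among 4 further SMAD genes, 1 had rows, SMAD5, a receptor SMAD of the BMP branch. It had 1129 tags, with 236 in replicate 1 and 912 in replicate 2, more than SMAD2, SMAD3 or SMAD4. Of its tags, 97.1% were in clusters with a 3'UTR label.

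**Figure D5:**
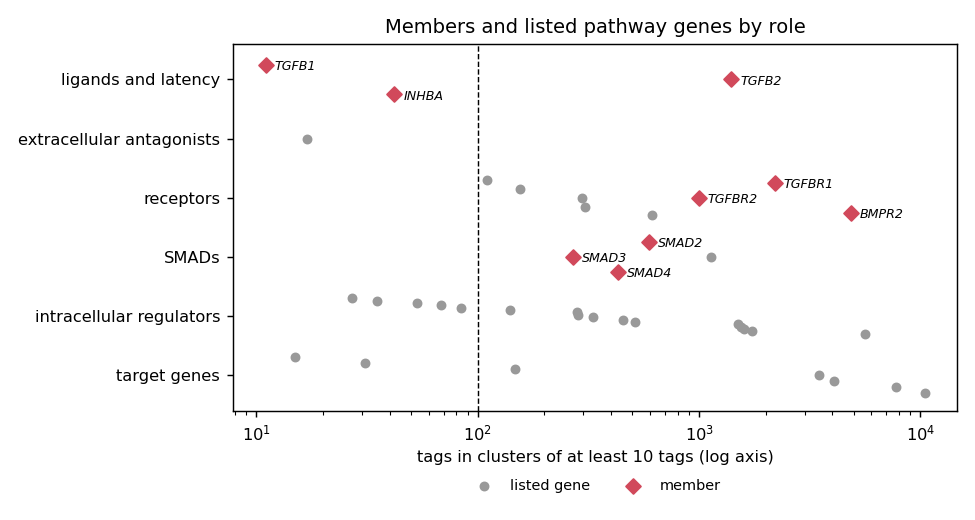
Tags in clusters of at least 10 tags (log axis) of the 9 members with rows (diamonds) and the listed pathway genes (grey points) by role. Genes without such a cluster are not drawn, and the dashed line marks 100 tags.

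Ligands and antagonists outside the members had few tags. Of 15 further ligand and latency genes 4 had rows, and of 7 extracellular antagonist genes 3 had rows, and 0 in either role passed 100 tags. FST, which encodes the activin antagonist follistatin, had the most among them with 17 tags. Of 19 intracellular regulators, 17 had rows and 11 passed. NEDD4L, an E3 ubiquitin ligase, led them with 5640 tags, of which 58.1% were in introns. TRIM33, also an E3 ubiquitin ligase, had 1734 tags with 92.8% under a 3'UTR label. SMURF2, a ubiquitin ligase that acts on SMADs and receptors, had 1597 tags with 44.6% in introns. Of 15 genes known to be induced or repressed through the pathway, 8 had rows and 5 passed. CTGF, a matricellular protein gene, had 10429 tags, THBS1, which encodes thrombospondin 1, had 7743, and CYR61, another matricellular protein gene, had 4064. CTGF and THBS1 had more tags than any of the members.

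Genes with a distribution over location labels most like that of the leading members were looked up among genes with 0.5 to 2 times the member's tags. Likeness was the total variation distance between the shares over 14 label classes, where 0 percentage points would mean equal shares. For BMPR2 the nearest of 193 genes were CD46 at 1.30 percentage points and SCD at 1.82. For TGFBR1 the nearest of 522 were SEL1L at 2.20 and GOLM1 at 2.37. For TGFB2 the nearest of 794 were SGMS2 at 2.41 and SAMD8 at 4.12, and neither of these had a cluster of at least 10 tags labelled only as 3'UTR.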

How the data were processed

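HITS-CLIP was carried out by the authors on Flag-RBM47 from MDA231-BrM2a cells in 2 replicates. Fragments were tailed with poly(A) and reverse transcribed with a primer holding a degenerate barcode, through which amplification copies were collapsed. The submitters' processing notes name Novoalign and hg18, with no role given. The deposited values are counts of unique tags per cluster, for each replicate and in total, with the authors' location label and gene ID. The replicate columns exceeded the total in 49 member clusters, by 77 tags in all and by 5 at most.

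Here, clusters were matched by gene symbol and summed with Python 3.11.15, pandas 2.3.3 and SciPy 1.17.1. A minimum of 10 tags per cluster was applied except where all deposited clusters are named, as for the 3'UTR stretches, the intron clusters of single genes, the ratios of 3'UTR to CDS and the replicate splits. Lengths were taken as end minus start, and whether positions count from 0 or 1 is not known. Wilson 95% intervals cover counting error only, and the labels do not say whether the replicates came from separate cultures, though the study treats them as biological. Transcript lengths were taken from GENCODE on GRCh37 for 5308 of 5600 genes, after 7669 of 7712 gene IDs were matched to RefSeq symbols. Of the 9 members, 0 had 3'UTR clusters that overlapped the GRCh37 3'UTR, so no reference coordinate or sequence was used. The binomial test was run on simulated splits drawn from the same binomial model, without the rule of at least 1 tag in each replicate. Such a run checks the calculation and cannot show whether the model holds for these libraries. The members and the pathway list were chosen with earlier results of these data known. Named were all members, the largest cluster of each, the 3 largest for members with more than 100 tags, the 3 leading pathway genes per role, and the 2 genes nearest in label shares to each of the 3 leading members. The SMAD3 intron stretch, the lack of clusters on the other strand, and the clusters beyond INHBA were picked after their values were seen.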

Additional observations from a re-analysis of the deposited data

How the results depend on the processing

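The alternatives were a different tag minimum, the sum of the replicate columns, other ways to count regions, and each library alone. Without replicate 1 the members passing 100 tags were 7 and without replicate 2 they were 4, and the pathway genes passing ranged from 10 to 20. Of all genes, 33.9% passed without replicate 1 and 10.3% without replicate 2. The rank of BMPR2 was 75 with all deposited clusters, 56 at 30 tags per cluster, 61 with either replicate left out, and 257 by tags per kb of clusters among genes with more than 100 tags. The members' share in clusters labelled only as 3'UTR was 72.2% with all deposited clusters, 79.3% at 30 tags, 57.1% with each cluster counted once, 89.9% with every label that includes 3'UTR, and 76.3% to 80.7% with a replicate left out. Their intron share was 6.23%, 1.21%, 10.4% and 13.3% in the same order, and 0.583% to 1.70% with a replicate left out. The main values were 75.2% and 2.72%. The number of members whose split differed between the libraries was 2 when scaled to the median ratio over genes, with BMPR2 among them, and 0 when scaled to clusters of at least 100 tags. The causes were not tested. The other alternatives for these results left them within 1.5 times for a count or within the SD of the replicates. When clusters closer than 50 nt were merged, the largest share of a gene's tags rose to 88.9% in TGFB2, 89.9% in TGFBR1, 81.3% in TGFBR2 and 40.8% in BMPR2, so that TGFBR2 no longer had the highest share among members with more than 100 tags. The alternatives for the pathway list, for the SMAD2 length scale, for the SMAD3 intron stretch, for the INHBA clusters and for single members with a replicate left out were chosen after seeing the data. No paired analysis was possible because the samples form 1 group. A fixed minimum of 10 tags is stricter in the smaller replicate by construction, and its depth limits what can be said of SMAD, INHBA and TGFB1 clusters.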
